A study of Mus musculus with 8 samples.

Results

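Fluorescent cells from the brains of mouse pups reared in low oxygen were compared with fluorescent cells of the embryonic brain. The comparison used 6 of the 8 RNA-seq libraries of the series: the 2 hypoxic libraries of postnatal day 12 (P12) and the 4 embryonic libraries, 2 from embryonic day 13 (E13) and 2 from embryonic day 15 (E15). All 53507 gene rows of the deposited count files entered it, of 53507 in the series. Each sample was described by its submitters as progenitor cells of the brain that carry the red fluorescent protein tdTomato. The hypoxic pups spent 8 days, from P3 to P11, in a chamber held at 10% oxygen, and foster mothers were exchanged between the hypoxic and the control litters. The embryonic samples are labelled wt, with no treatment. The pups carry no genotype label apart from tdTomato, and the driver that switches tdTomato on, the number of animals per library and the part of the brain taken are not given in the sources used here. Libraries were built from 400 pg of total RNA. The 2 normoxic P12 libraries of the series, from pups kept in normal air, are not in the contrast. They appear in the plots and beside genes chosen for a difference between the 2 P12 groups, not beside every gene named. The question of the study, as its title puts it, concerns what changes in transcription and signalling when cortical progenitors become active again after an injury of the newborn brain.

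In the embryonic cortex, radial glia, the stem cells that line the ventricle, divide to give intermediate progenitors and neurons. Late in gestation and after birth the same lineage turns to astrocytes and oligodendrocyte progenitors. The transcription factors SOX9 and the nuclear factor I proteins, together with signalling through the LIF receptor and STAT3, drive that turn. The proneural factor NEUROG2 and the intermediate progenitor factor EOMES hold cells on the neuronal path.

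Sequencing depth was alike, with between 36252027 and 47084796 counts per library over the whole series. The number of genes with at least 10 counts was not: 12785 and 11695 in the hypoxic libraries against 17520 to 18318 in the embryonic ones. The 100 genes with the most counts held 26.9% and 34.5% of the hypoxic counts and 14.2% to 14.9% of the embryonic counts. Log expression correlated across genes at r = 0.705 between the 2 hypoxic libraries, at r = 0.984 between the E13 libraries and at r = 0.988 between the E15 libraries. Each hypoxic library correlated more closely with both normoxic P12 libraries, at r = 0.716 to 0.769, than with the other hypoxic library. Whether the libraries of a group were prepared together is not given in the sources used here. The label of progenitor cells was checked against marker genes. Embryonic libraries held the progenitor gene Sox2 at 4.21 to 11.8 CPM (counts scaled to the normalized library size). Lhx2, another gene of the radial glia list, was at 446 to 674 CPM there, and the 18 genes of that list summed to 1060 to 1330 CPM. The neuronal gene Neurod6 was at 1450 to 1920 CPM, so transcripts of differentiating neurons were present in the embryonic libraries too. In the hypoxic libraries the summed level of the 22 astrocyte genes was 28000 and 25000 CPM, against 175 to 212 CPM in the embryonic libraries. Nothing states that the replicates come from separate animals, so the p-values below measure the spread between these libraries, which may be technical.

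Of 19936 genes with enough counts to test, 2630 were higher in the hypoxic P12 cells than in the mean of E13 and E15 (13.2%) and 2578 were lower (12.9%), which makes 5208 called in all (26.1%), at a Benjamini-Hochberg adjusted p under 0.05 in edgeR's quasi-likelihood test. A gene is said to have risen or fallen only where it passed that threshold. Counts of list members below are to be read beside the shares of 13.2% higher and 12.9% lower. Log2 differences are given with the standard error of the fit. The median log2 difference over all genes tested was -0.43, and it moved to -0.22 with relative log expression scaling and to -0.75 with upper-quartile scaling, so small differences are read against that shift. Against E13 alone 1745 genes rose (8.75%) and 2050 fell (10.3%). Against E15 alone 1823 rose (9.14%) and 2034 fell (10.2%).

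The genes that rose and those that fell differed in how they were detected. Of the 2630 that rose, 1981 (75.3%) had at least 10 counts in every embryonic library, so they were detected on both sides, and 146 (5.55%) had no embryonic count. Of the 2578 that fell, 802 (31.1%) had no count in either hypoxic library, and only 549 (21.3%) had at least 10 counts in both. Genes without a count on 1 side were tested through their counts in other libraries, and could not have come out in the other direction. Differences of at least 16-fold made up 1205 (45.8%) of the genes that rose and 2153 (83.5%) of those that fell. The lower counts rest on the tool and on the libraries: limma-voom called 1976 genes higher and 414 lower, and without any 1 of the 4 embryonic libraries edgeR called 1073 to 1109 higher and 489 to 506 lower. Of the 117 genes whose rise or fall is given below with its values, 87 passed without each of the embryonic libraries in turn, and those that did not are named beside their values. In bulk RNA, fewer cells of a type and less RNA per cell cannot be told apart, and this holds for each result below.

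**Figure D1:**
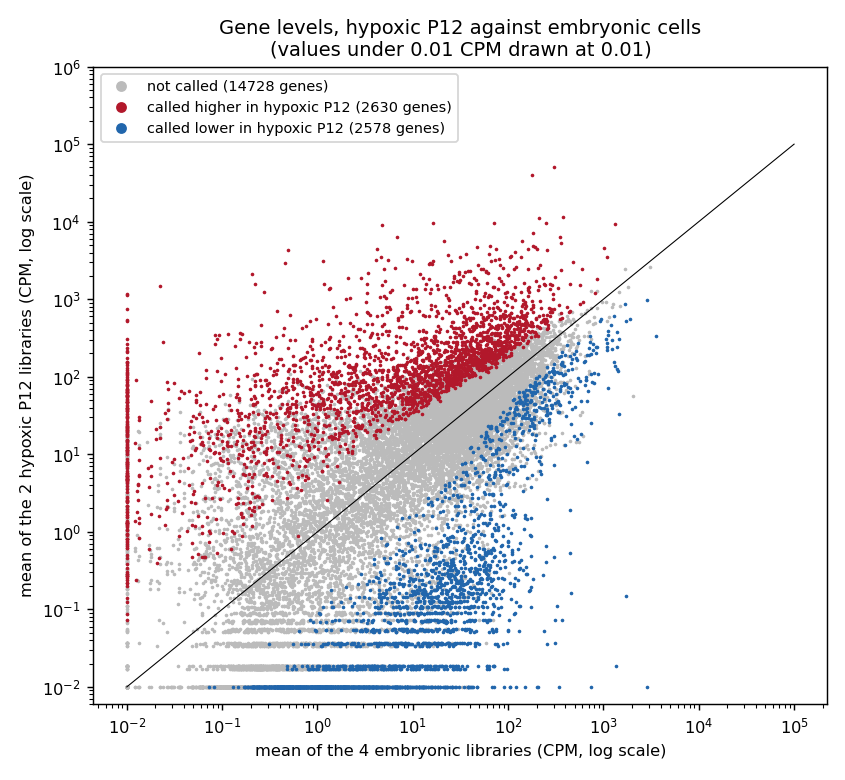
Each point is 1 of the 19936 genes tested, with the mean of the 4 embryonic libraries on the x axis and the mean of the 2 hypoxic P12 libraries on the y axis, both in CPM on log scales with values under 0.01 drawn at 0.01. The 2630 genes called higher are red and mostly lie at measurable embryonic levels, while many of the 2578 genes called lower, in blue, sit at the bottom edge, where 802 have no hypoxic count.

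The genes with the smallest p that rose included enzymes, receptors and secreted proteins. Sat1, the enzyme that acetylates the polyamines spermidine and spermine (chromosome X, 155213132 to 155216449, minus strand), was at 7.03 and 7.43 CPM at E13, 6.96 and 5.83 at E15, and 6470 and 6260 in the hypoxic libraries. Its log2 difference was 9.87 ± 0.17 (edgeR adjusted p = 4.09e-05). Cpe, a carboxypeptidase that trims peptide hormones (chromosome 8, 64592542 to 64693054, minus strand), was already abundant in the embryo, at 378 and 327 CPM at E13, 405 and 409 at E15, and 11400 and 11500 in the hypoxic libraries. It rose by 4.92 ± 0.10 (edgeR adjusted p = 4.2e-05). Ntrk2, the receptor for brain-derived neurotrophic factor (chromosome 13, 58806569 to 59133970, plus strand), went from 12.2 and 17.3 CPM at E13, 11.5 and 10.2 at E15, and 1950 and 1820 in the hypoxic libraries, a log2 difference of 7.21 ± 0.21 (edgeR adjusted p = 9.11e-05).

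Other genes of that rank follow. Genes ranked by smallest p or largest fold were named only where the hypoxic and embryonic libraries did not overlap, so their separation is not a result. Spry2, an inhibitor of receptor tyrosine kinase signalling (chromosome 14, 105891947 to 105896819, minus strand), was at 1.59 and 1.46 CPM at E13, 0.757 and 0.755 at E15, and 2290 and 3940 in the hypoxic libraries, a log2 difference of 11.50 ± 0.32 (edgeR adjusted p = 9.11e-05). Rorb, a nuclear receptor (chromosome 19, 18930605 to 19111196, minus strand), was at 6.35 and 4.28 CPM at E13, 5.74 and 5.47 at E15, and 3670 and 2680 in the hypoxic libraries, a difference of 9.18 ± 0.26 (edgeR adjusted p = 9.11e-05). Rps24, a protein of the small ribosomal subunit, rose by 5.55 ± 0.14 (edgeR adjusted p = 9.11e-05), and its value is uncertain because its reads can be shared with processed copies of the gene. Lifr and Cst3, also of this rank, are described with the glial genes below.

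Some of the largest rises started from embryonic values of 0. Bhlhe41, a basic helix-loop-helix repressor of the circadian clock system (chromosome 6, 145858243 to 145865558, minus strand), was at 1020 and 1310 CPM in the hypoxic libraries with no count in any embryonic library, so it was at least 22400-fold higher, taking 3 counts per embryonic library as the floor. By the same floor Hepacam, an adhesion protein of astrocyte endfeet (chromosome 9, 37367351 to 37386575, plus strand), was at least 10100-fold higher, at 524 and 523 CPM. Sdc4, a cell-surface heparan sulfate proteoglycan (chromosome 2, 164424247 to 164443887, minus strand), had counts in 1 embryonic library, at 0.0891 CPM in the second E13 library, and stood at 1100 and 1860 CPM in the hypoxic ones. Egfr, the epidermal growth factor receptor (chromosome 11, 16752203 to 16918158, plus strand), was at 75.1 and 64.1 CPM with no embryonic count, at least 1340-fold higher.

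The genes with the smallest p that fell included receptors and adhesion molecules of growing axons. Rgmb, a co-receptor for bone morphogenetic proteins (chromosome 17, 15803188 to 15831039, minus strand), was at 303 and 278 CPM at E13, 202 and 208 at E15, and 0.303 and 0.518 in the hypoxic libraries, a log2 difference of -9.21 ± 0.54 (edgeR adjusted p = 0.000422). Plxna2, a semaphorin receptor (chromosome 1, 194618218 to 194816869, plus strand), was at 544 and 395 CPM at E13, 374 and 457 at E15, and 0.538 and 0.518 in the hypoxic libraries, a difference of -9.70 ± 0.62 (edgeR adjusted p = 0.000524). L1cam, an adhesion molecule of axons (chromosome X, 73853778 to 73896105, minus strand), had 203 to 288 CPM in the embryonic libraries and 2 hypoxic counts in all. The embryonic level of L1cam was 7310 times the hypoxic one, with a 95% counting interval of 2020 to 60400 that covers counting error only.

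Further down that rank stood Ttc39b and Nsmf. Ttc39b, a tetratricopeptide repeat protein (chromosome 4, 83220300 to 83324255, minus strand), was at 156 and 105 CPM at E13, 107 and 105 at E15, and 0.0673 and 0.111 in the hypoxic libraries, a log2 difference of -10.32 ± 0.67 (edgeR adjusted p = 0.000542). Nsmf, which carries signals from NMDA receptors to the nucleus (chromosome 2, 25054355 to 25062881, plus strand), was at 174 and 131 CPM at E13, 183 and 198 at E15, and 1.08 and 0.666 in the hypoxic libraries, a difference of -7.61 ± 0.50 (edgeR adjusted p = 0.000564). That the hypoxic values of both genes lay below all embryonic ones was a condition for naming them here. Mmp24, a membrane-bound metalloproteinase (chromosome 2, 155775342 to 155818366, plus strand), had no hypoxic count against 59.9 to 168 CPM in the embryo, and was at least 998-fold lower. Lhx9, a LIM homeodomain factor (chromosome 1, 138825186 to 138848577, minus strand), also had no hypoxic count against 60.0 to 200 CPM, at least 1140-fold lower.

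**Figure D2:**
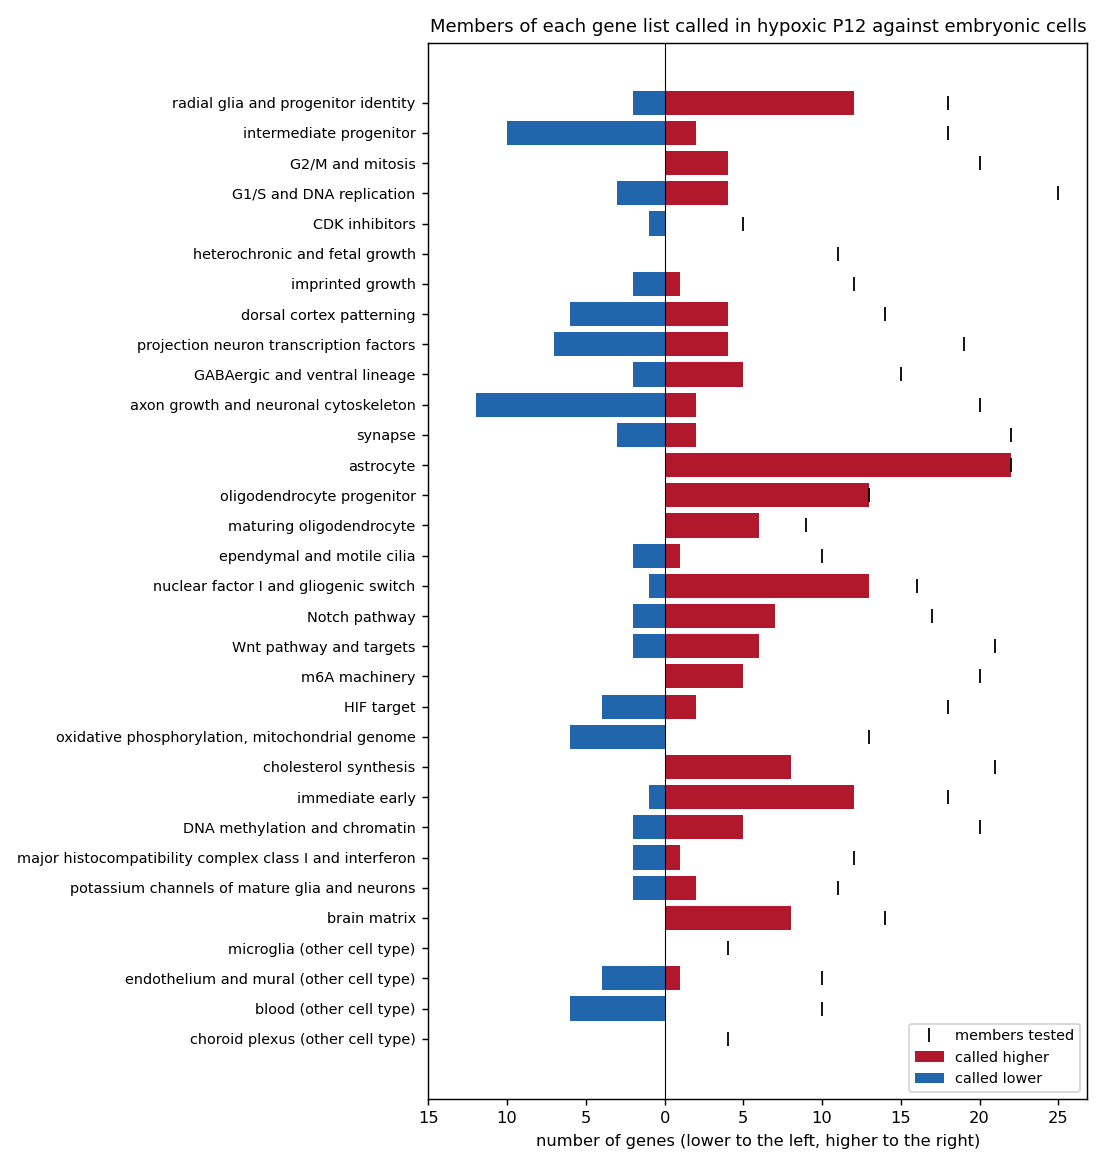
For each of 32 gene lists, bars give the number of members called higher (red, to the right) and lower (blue, to the left) in hypoxic P12 against embryonic cells, and the tick gives the number of members tested. The astrocyte bar reaches 22 of 22 and the oligodendrocyte progenitor bar 13 of 13 to the right, while the longest bars to the left are those of axon growth genes, with 12 of 20, and intermediate progenitor genes, with 10 of 18.

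Astrocyte genes were the group with the most members that rose. All 22 genes of the list passed the low-count filter and 22 rose, with a median log2 difference of 9.13 against -0.43 over all genes. Of these, 2 had no embryonic count and could not have come out lower. Those 2 and Gfap, with 1 embryonic count in all, passed the low-count filter through P12 libraries alone. Without 1 embryonic library the count was 18 to 20, with the lowest value without E15 replicate 1. Slc1a2, the main glutamate transporter of astrocytes, was at 5.88 and 4.15 CPM at E13, 3.45 and 6.61 at E15, and 2020 and 2870 in the hypoxic libraries, a difference of 8.93 ± 0.38 (edgeR adjusted p = 0.000233). Aqp4, the water channel of their endfeet, was at 1.11 and 1.55 CPM at E13, 0 and 0 at E15, and 174 and 163 in the hypoxic libraries, a difference of 11.42 ± 0.48 (edgeR adjusted p = 0.000417). Gfap, their intermediate filament, had 1 count in the 4 embryonic libraries together and 830 and 647 CPM in the hypoxic ones. The hypoxic level of Gfap was 172000 times the embryonic one, with a 95% counting interval of 30800 to 6780000.

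Enzymes and couplers of mature astrocytes rose as well. Clu, the secreted chaperone clusterin, was at 0.769 and 0.356 CPM at E13, 1.23 and 3.12 at E15, and 1340 and 1440 in the hypoxic libraries, a difference of 10.29 ± 0.57 (edgeR adjusted p = 0.000371). Gja1, the gap junction protein connexin 43, was at 13.6 and 28.9 CPM at E13, 5.41 and 5.87 at E15, and 1190 and 1520 in the hypoxic libraries, a difference of 6.95 ± 0.36 (edgeR adjusted p = 0.000309). Aldh1l1, a folate enzyme used as an astrocyte marker, had no embryonic count and 197 and 108 CPM in the hypoxic libraries, at least 2920-fold higher. The smallest change of the list belonged to Fgfr3, a fibroblast growth factor receptor that radial glia also carry, at 19 and 18.7 CPM at E13, 17.2 and 21.6 at E15, and 91 and 58.7 in the hypoxic libraries, a difference of 1.97 ± 0.41 (edgeR adjusted p = 0.0202). Cst3, the protease inhibitor cystatin C, had the smallest p of the list, at 71.5 and 68.8 CPM at E13, 112 and 96.9 at E15, and 2550 and 2570 in the hypoxic libraries, a difference of 4.90 ± 0.14 (edgeR adjusted p = 9.11e-05). Without any 1 embryonic library the difference of Fgfr3 from the embryo did not pass.

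Oligodendrocyte progenitor genes rose in the same comparison. Each of the 13 genes of that list was tested and 13 rose, with a median log2 difference of 11.8. Of these, 4 had no embryonic count, so they passed the low-count filter through P12 libraries alone and could not have come out lower. Sox10, with very few embryonic counts, and Pdgfra, above the floor in only 1 embryonic library, also passed it through P12 libraries. With 1 embryonic library left out, 8 or 9 rose. Olig2, the transcription factor that specifies the lineage, was at 0.68 and 0.339 CPM at E13, 0 and 0 at E15, and 119 and 163 in the hypoxic libraries, a difference of 11.85 ± 0.74 (edgeR adjusted p = 0.00103). Pdgfra, the growth factor receptor of these cells, was at 0.733 and 0 CPM at E13, 0.0352 and 0 at E15, and 144 and 411 in the hypoxic libraries, a difference of 11.66 ± 1.82 (edgeR adjusted p = 0.00839). Ptprz1, a receptor phosphatase of progenitors, was at 9.1 and 10 CPM at E13, 33.2 and 32.1 at E15, and 1060 and 1810 in the hypoxic libraries, a difference of 6.34 ± 0.28 (edgeR adjusted p = 0.000266). In these genes both hypoxic values were above all embryonic ones. Pdgfra did not pass without E15 replicate 1 or without E15 replicate 2.

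Olig1, the partner of Olig2, and Gpr17, a receptor of committed progenitors, had no embryonic count. Olig1 was at 161 and 152 CPM in the hypoxic libraries, at least 3010-fold higher. Gpr17 was at 350 and 724 CPM, at least 10300-fold higher. Sox10, the transcription factor of all oligodendrocyte stages, had 2 embryonic counts in all and 93.9 and 20.9 CPM in the hypoxic libraries. Its hypoxic level was 6830 times the embryonic one, with a 95% counting interval of 1890 to 56400.

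Genes of later oligodendrocytes were only partly measured. Of the 12 on that list 9 were tested and 6 rose, and 3 or 4 rose without 1 embryonic library. Mbp, the myelin basic protein, was at 20.5 and 33.2 CPM at E13, 6.06 and 18.9 at E15, and 216 and 170 in the hypoxic libraries, a difference of 3.40 ± 0.67 (edgeR adjusted p = 0.0177). Mbp transcripts were thus already found in the embryonic libraries. Mog, a late myelin protein, had no hypoxic count, and Opalin had none in either group. Mbp did not pass without E13 replicate 1 or without E13 replicate 2 or without E15 replicate 1.

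Transcription factors and signals of the switch from neurons to glia were measured in 16 genes, of which 13 rose and 1 fell (median log2 difference 4.48). In fits without 1 embryonic library, 10 or 11 rose. Nfia, the nuclear factor I protein most closely tied to the start of gliogenesis, was at 295 and 234 CPM at E13, 240 and 239 at E15, and 8340 and 10700 in the hypoxic libraries, a difference of 5.24 ± 0.19 (edgeR adjusted p = 0.000178). Nfix rose less, by 2.17 ± 0.32 (edgeR adjusted p = 0.00668), from 160 and 169 CPM at E13 and 693 and 758 at E15 to 1550 in both hypoxic libraries. Nfib was at 1840 and 1290 CPM at E13, 1940 and 2190 at E15, and 1390 and 1470 in the hypoxic libraries, and its log2 difference of -0.33 ± 0.18 (edgeR adjusted p = 0.219) did not pass. Upper-quartile scaling gave Nfib a difference of -0.66 that passed (edgeR adjusted p = 0.0436). The lack of a call does not show equal levels.

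Receptors and mediators of gliogenic cytokines were on the same list. Lifr, the receptor of leukemia inhibitory factor, was at 2.99 and 3.88 CPM at E13, 3.15 and 2.96 at E15, and 965 and 891 in the hypoxic libraries, a difference of 8.16 ± 0.21 (edgeR adjusted p = 9.11e-05). Il6st, its signalling partner gp130, was at 5.37 and 10.2 CPM at E13, 12.7 and 10.5 at E15, and 194 and 74.2 in the hypoxic libraries, a difference of 3.82 ± 0.51 (edgeR adjusted p = 0.00513). Stat3, the transcription factor they activate, was at 72.6 and 79.9 CPM at E13, 38.8 and 44.8 at E15, and 204 and 213 in the hypoxic libraries, a difference of 1.89 ± 0.25 (edgeR adjusted p = 0.00505). Zbtb20, a repressor that promotes astrocyte formation, was at 41.4 and 29.8 CPM at E13, 136 and 192 at E15, and 1710 and 2360 in the hypoxic libraries, a difference of 4.74 ± 0.31 (edgeR adjusted p = 0.000564). The gene that fell was Id2, an inhibitor of basic helix-loop-helix factors, at 308 and 224 CPM at E13, 351 and 442 at E15, and 51.2 and 47.1 in the hypoxic libraries, a difference of -2.72 ± 0.62 (edgeR adjusted p = 0.0266), while its relative Id4 rose by 4.31 ± 0.29 (edgeR adjusted p = 0.000572). The difference of Id2 from the embryo did not pass once any 1 embryonic library was left out. Id2 also did not pass without hypoxic replicate 1 or without hypoxic replicate 2.

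**Figure D3:**
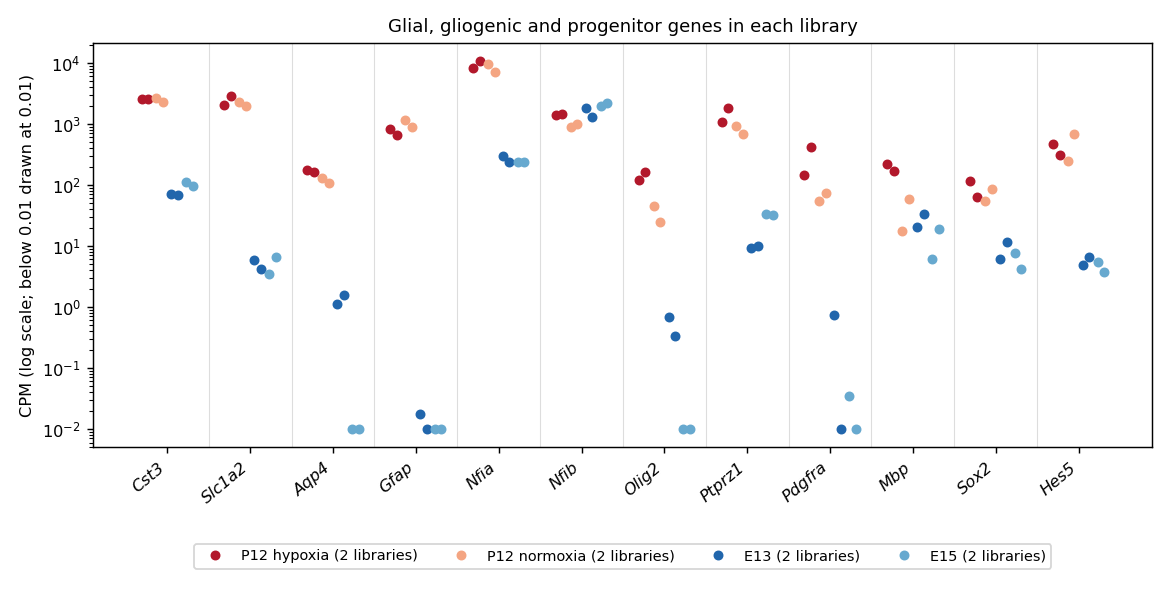
Dots give the CPM (log scale, values under 0.01 drawn at 0.01) of 12 glial and progenitor genes in each of the 8 libraries, coloured by group. In Cst3, Slc1a2, Aqp4, Gfap, Nfia, Olig2, Ptprz1, Pdgfra, Mbp, Sox2 and Hes5 both hypoxic dots lie above all 4 embryonic dots, and in Nfib the groups overlap.

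Promoter sequences were read for the called members of 6 gene lists, to see which letters they share. The 250 bases before a transcription start were searched on both strands for TTGGCA, the half-site of nuclear factor I, for the E-box CAGATG that proneural factors bind, and for the CCAAT box. The reverse complement of TTGGCA can overlap a CCAAT box. Among 32851 RefSeq promoters of the mouse build GRCm38.p6, 12.3% held TTGGCA, 14.4% held CAGATG and 33.8% held CCAAT. For 17 of the 22 astrocyte genes that rose, 20 promoters were in the table, and TTGGCA stood in 10.0% of them, CAGATG in 5.0% and CCAAT in 45.0%. For 8 of the 13 oligodendrocyte progenitor genes, 9 promoters were in the table, with shares of 11.1%, 22.2% and 22.2%. For 8 of the 10 intermediate progenitor genes that fell, 17 promoters were in the table, and 3 held TTGGCA (17.6%), 5 held CAGATG (29.4%) and 12 held CCAAT (70.6%). Some of those 17 promoters are alternative starts of the same gene. For 7 of the 12 axon genes that fell, 7 promoters were in the table, and 1 held TTGGCA, 1 held CAGATG and 3 held CCAAT (42.9%). Among factors of projection neurons, CCAAT stood in 3 of the 6 promoters of members that rose and in 4 of the 7 of members that fell (57.1%), and TTGGCA in 33.3% and 28.6%. Of the 4 promoters of mitosis genes that rose, 3 held CCAAT (75.0%), 1 held CAGATG and 0 held TTGGCA. These sets are small. A match is a description of letters, not a site in use.

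The 4 promoters below belong to the gene of smallest p in each of the first 4 lists that has a single start in the table, so that a reader can see the letters searched. They are written in the direction of the gene, with matches in capitals. The first belongs to Cst3 (chr2:148875513-148875762, minus strand), the second to Ptprz1 (chr6:22875252-22875501, plus strand), the third to Nhlh2 (chr3:102009895-102010144, plus strand) and the fourth to Ina (chr19:47014431-47014680, plus strand). The Nhlh2 promoter holds 1 CAGATG and 2 CCAAT letters, and the other 3 hold none of the motifs in this window.
Cst3: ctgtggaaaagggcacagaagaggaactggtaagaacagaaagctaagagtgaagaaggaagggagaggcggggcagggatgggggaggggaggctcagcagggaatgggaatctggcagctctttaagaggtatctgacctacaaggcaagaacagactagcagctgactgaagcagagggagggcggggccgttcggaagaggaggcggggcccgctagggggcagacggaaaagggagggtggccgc
Ptprz1: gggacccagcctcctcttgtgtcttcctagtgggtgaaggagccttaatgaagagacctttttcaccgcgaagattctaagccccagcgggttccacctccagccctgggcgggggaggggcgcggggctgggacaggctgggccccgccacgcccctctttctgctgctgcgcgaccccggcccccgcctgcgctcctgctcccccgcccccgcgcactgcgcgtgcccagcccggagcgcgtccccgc
Nhlh2: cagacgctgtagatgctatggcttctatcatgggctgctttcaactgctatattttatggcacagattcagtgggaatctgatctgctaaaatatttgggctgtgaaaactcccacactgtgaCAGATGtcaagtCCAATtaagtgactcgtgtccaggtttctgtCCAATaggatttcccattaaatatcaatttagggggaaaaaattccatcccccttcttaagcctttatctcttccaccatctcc
Ina: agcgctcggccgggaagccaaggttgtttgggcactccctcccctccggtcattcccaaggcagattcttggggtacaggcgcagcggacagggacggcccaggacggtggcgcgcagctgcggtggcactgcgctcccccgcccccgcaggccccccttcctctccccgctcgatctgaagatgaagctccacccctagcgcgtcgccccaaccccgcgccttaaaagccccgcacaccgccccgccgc

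Genes of radial glia divided into those that rose and those that fell. Of the 18 genes on the list, 18 were tested, 12 rose and 2 fell (median log2 difference 2.81), and 7 to 9 rose without 1 embryonic library. Several of these are also astrocyte genes. Sox2, which keeps neural progenitors undifferentiated, was at 6.05 and 11.8 CPM at E13, 7.66 and 4.21 at E15, and 117 and 63.2 in the hypoxic libraries, a difference of 3.63 ± 0.55 (edgeR adjusted p = 0.00748). Hes5, a Notch-dependent repressor of neurogenesis, was at 4.88 and 6.65 CPM at E13, 5.53 and 3.68 at E15, and 464 and 305 in the hypoxic libraries, a difference of 6.22 ± 0.51 (edgeR adjusted p = 0.00106). Pax6, which directs cortical radial glia, was at 32.8 and 30.6 CPM at E13, 57.1 and 38.1 at E15, and 150 and 406 in the hypoxic libraries, a difference of 2.84 ± 0.52 (edgeR adjusted p = 0.0143). In these genes the hypoxic values were above all embryonic ones. With any 1 embryonic library left out, the difference of Pax6 from the embryo did not pass. Sox2 did not pass without E13 replicate 1 or without E15 replicate 2. Pax6 also did not pass without hypoxic replicate 2.

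Other genes of radial glia did not follow. Nes, their intermediate filament nestin, was at 21.2 and 22.3 CPM at E13, 7.89 and 15.7 at E15, and 49.4 and 70.5 in the hypoxic libraries, a log2 difference of 1.91 ± 0.63 (edgeR adjusted p = 0.0733) that did not pass. Hopx, a marker of outer radial glia, was at 0.698 and 1.03 CPM at E13, 1.2 and 1.17 at E15, and 0.505 and 0.407 in the hypoxic libraries, which are values near or under 1 CPM in each library. The 2 genes that fell were Emx2 and Lhx2, both homeodomain factors that give the cortex its dorsal identity. Emx2 was at 34.3 and 43.5 CPM at E13, 40 and 39.9 at E15, and 0.202 and 0.185 in the hypoxic libraries, a difference of -7.65 ± 0.70 (edgeR adjusted p = 0.00142). Lhx2 was at 446 and 530 CPM at E13, 674 and 657 at E15, and 54.3 and 43.7 in the hypoxic libraries, a difference of -3.54 ± 0.26 (edgeR adjusted p = 0.000732).

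Dorsal patterning factors held members that fell and members that rose. Of 14 genes, 14 were tested, 6 fell and 4 rose (median log2 difference -1.72). Leaving out any 1 embryonic library gave 3 that fell and 1 that rose, limma-voom called 2 lower and 3 higher, and without hypoxic replicate 2 there were 2 higher. Emx1, a factor of the dorsal progenitors and their neurons, was at 37.5 and 39.9 CPM at E13, 43.3 and 35.9 at E15, and 0.37 and 0.296 in the hypoxic libraries, a difference of -6.87 ± 1.78 (edgeR adjusted p = 0.038). Dmrt3, a factor of the medial cortex, had no hypoxic count against 27.5 to 60.8 CPM, at least 407-fold lower. Tcf4, a widely used basic helix-loop-helix factor, rose, at 856 and 644 CPM at E13, 1350 and 1540 at E15, and 2720 and 4210 in the hypoxic libraries, a difference of 1.74 ± 0.32 (edgeR adjusted p = 0.0137). The test without any 1 embryonic library did not call the difference of Emx1 and Tcf4 from the embryo. Emx1 also did not pass without hypoxic replicate 1 or without hypoxic replicate 2. Tcf4 also did not pass without hypoxic replicate 2.

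Factors of the ventral forebrain and of inhibitory neurons included genes without an embryonic count. Of 20 genes 15 were tested, 5 rose and 2 fell (median log2 difference 4.27), and 3 to 5 rose without 1 embryonic library. Gsx2, a factor of the ventral germinal zone, was at 210 and 139 CPM in the hypoxic libraries with no embryonic count, at least 3350-fold higher. Gad2, an enzyme of GABA synthesis, was at 0.0179 and 0 CPM at E13, 0.123 and 0.0161 at E15, and 3.8 and 14 in the hypoxic libraries, a difference of 8.25 ± 1.25 (edgeR adjusted p = 0.00764). Nkx2-1 and Lhx8, factors of the medial ganglionic eminence, had no count in the hypoxic or the embryonic libraries. No gene of the 2 that fell was called without any 1 embryonic library or with limma-voom, and DESeq2 called 9 higher and the fit without hypoxic replicate 1 called 8 higher. One of those that fell, Tshz1, a zinc finger factor of olfactory interneurons, was at 55.1 and 76.6 CPM at E13, 43.4 and 47.9 at E15, and 2.69 and 0.592 in the hypoxic libraries, a difference of -5.06 ± 0.89 (edgeR adjusted p = 0.0123). Without any 1 embryonic library the difference of Tshz1 from the embryo did not pass. Gad2 did not pass without E13 replicate 2 or without E15 replicate 2.

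Of the 18 intermediate progenitor genes 18 were tested, 10 fell, 2 rose and 6 did not pass (median log2 difference -2.77). Without 1 embryonic library 3 fell, and limma-voom called 4 lower. Mfap4, a protein of microfibrils in the extracellular matrix, was at 366 and 334 CPM at E13, 308 and 289 at E15, and 0.0336 and 0.185 in the hypoxic libraries, a difference of -11.51 ± 0.83 (edgeR adjusted p = 0.000706). Nhlh2, a basic helix-loop-helix factor of newborn neurons, had no hypoxic count against 114 to 195 CPM in the embryo, and was at least 1410-fold lower. Elavl2, an RNA-binding protein of early neurons, was at 435 and 391 CPM at E13, 353 and 365 at E15, and 81.8 and 85.9 in the hypoxic libraries, a difference of -2.20 ± 0.34 (edgeR adjusted p = 0.00825).

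Eomes and Neurog2 were measured with wide scatter between the hypoxic libraries. Eomes, which defines intermediate progenitors, was at 257 and 267 CPM at E13, 157 and 101 at E15, and 12.9 and 77.7 in the hypoxic libraries, a log2 difference of -2.02 ± 0.84 (edgeR adjusted p = 0.128). Neurog2, the proneural factor upstream of it, was at 167 and 262 CPM at E13, 123 and 77 at E15, and 33.1 and 12.1 in the hypoxic libraries, a difference of -2.69 ± 1.53 (edgeR adjusted p = 0.233). Both hypoxic values lay below all embryonic values in each of these genes, but neither difference passed the test. Btg2, an antiproliferative gene that is also an immediate early gene, rose, at 239 and 317 CPM at E13, 119 and 88.5 at E15, and 4890 and 4640 in the hypoxic libraries, a difference of 4.81 ± 0.23 (edgeR adjusted p = 0.000266). Sox11, a factor of newborn neurons, overlapped between the groups, at 3100 and 1990 CPM at E13, 3460 and 3710 at E15, and 1480 and 3740 in the hypoxic libraries, and did not pass (-0.21 ± 0.39 (edgeR adjusted p = 0.723)).

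Transcription factors of cortical projection neurons gave 7 of 19 genes that fell and 4 that rose, with all 19 tested and a median log2 difference of -0.69. With 1 embryonic library left out, 4 or 5 fell, and limma-voom called 0 lower. Neurod6, a factor of excitatory cortical neurons, was at 1720 and 1450 CPM at E13, 1870 and 1920 at E15, and 0 and 0.296 in the hypoxic libraries, a difference of -13.52 ± 1.34 (edgeR adjusted p = 0.00192). Bcl11b, a factor of subcerebral neurons, had 2 hypoxic counts in all against 200 to 459 CPM in the embryo, and its embryonic level was 8790 times the hypoxic one (95% counting interval 2430 to 72600).

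Rorb, Pou3f2 and Cux2 were among the 4 of that list that rose. Pou3f2, a POU factor of upper-layer neurons and progenitors, was at 17.9 and 19.1 CPM at E13, 83.2 and 68.9 at E15, and 292 and 651 in the hypoxic libraries, a difference of 3.65 ± 0.36 (edgeR adjusted p = 0.00184). Cux2, a factor of upper layers and of their progenitors, was at 21.8 and 16.8 CPM at E13, 38.4 and 34.9 at E15, and 120 and 325 in the hypoxic libraries, a difference of 3.07 ± 0.44 (edgeR adjusted p = 0.00629). Tbr1, a factor of deep-layer neurons, was at 855 and 741 CPM at E13, 363 and 308 at E15, and 0 and 63.3 in the hypoxic libraries, and the unequal hypoxic values did not pass (-4.03 ± 2.30 (edgeR adjusted p = 0.234)). Slc17a7, the vesicular glutamate transporter of cortical neurons, had no hypoxic count against 59.3 to 152 CPM, at least 988-fold lower.

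**Figure D4:**
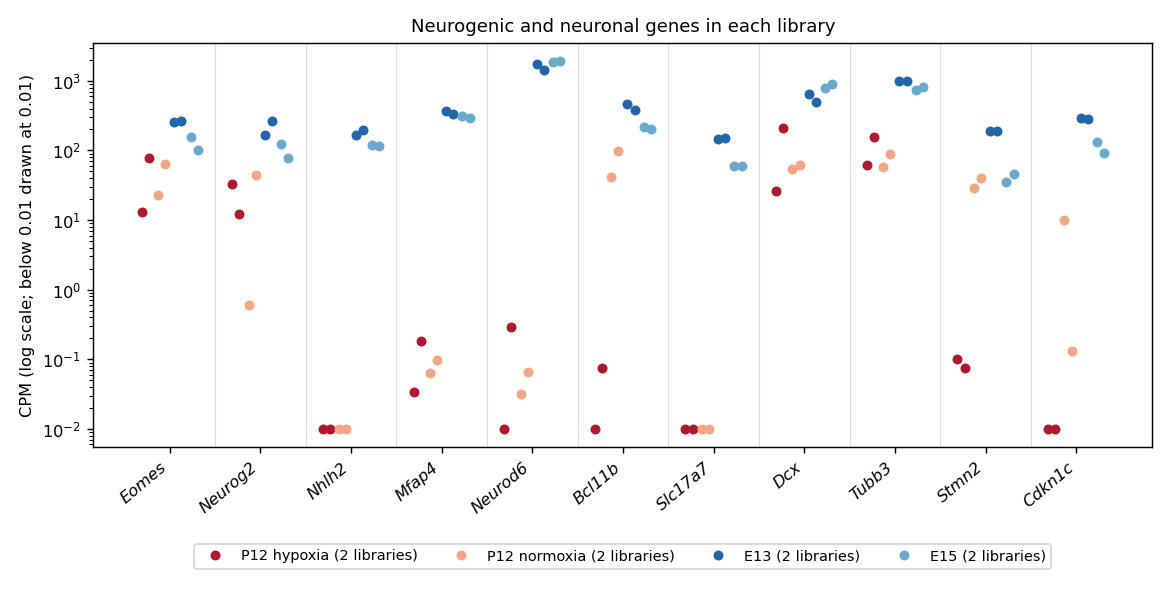
Dots give the CPM (log scale, values under 0.01 drawn at 0.01) of 11 genes of intermediate progenitors, neurons and cell cycle exit in each of the 8 libraries, coloured by group. In each gene both hypoxic dots lie below all 4 embryonic dots, and Nhlh2, Slc17a7 and Cdkn1c have no count in either hypoxic library.

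Genes of axon growth and the neuronal cytoskeleton fell in 12 of 20 cases and rose in 2, with 20 tested and a median log2 difference of -2.87. In fits without 1 embryonic library, 7 or 8 fell, and limma-voom called 4 lower. Stmn2, which regulates microtubules in growth cones (chromosome 3, 8509360 to 8561606, plus strand), was at 189 and 190 CPM at E13, 35 and 45.7 at E15, and 0.101 and 0.074 in the hypoxic libraries, a difference of -9.91 ± 0.59 (edgeR adjusted p = 0.000422). Ina, the neurofilament subunit internexin, was at 99.3 and 115 CPM at E13, 49.6 and 55.4 at E15, and 0.135 and 0.185 in the hypoxic libraries, a difference of -8.85 ± 0.59 (edgeR adjusted p = 0.000571). Tubb3, the neuronal beta tubulin, was at 980 and 994 CPM at E13, 749 and 824 at E15, and 62.5 and 155 in the hypoxic libraries, a difference of -3.02 ± 0.46 (edgeR adjusted p = 0.00763). The hypoxic libraries kept 3 and 2 counts of Stmn2 and 4 and 5 of Ina, while Tubb3 stayed well detected.

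Not all neuronal cytoskeleton genes were lower. Dcx, a microtubule protein of migrating neurons, was at 643 and 494 CPM at E13, 787 and 899 at E15, and 26.3 and 213 in the hypoxic libraries, and its log2 difference of -2.53 ± 0.83 (edgeR adjusted p = 0.0708) did not pass. Map1b, a microtubule-associated protein also found in glia, rose, at 1460 and 1160 CPM at E13, 648 and 831 at E15, and 2430 and 6780 in the hypoxic libraries, a difference of 2.23 ± 0.45 (edgeR adjusted p = 0.0187). Mapt, which encodes tau, rose too, at 20.6 and 19.8 CPM at E13, 24 and 25.8 at E15, and 72 and 116 in the hypoxic libraries, a difference of 2.07 ± 0.40 (edgeR adjusted p = 0.0163). Tuba1a, the main embryonic alpha tubulin, fell by -3.38 ± 0.22 (edgeR adjusted p = 0.000524), and its value is uncertain because near-identical tubulin genes share reads with it. The difference of Map1b and Mapt from the embryo did not pass once any 1 embryonic library was left out. Map1b also did not pass without hypoxic replicate 2.

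Synaptic genes were all tested: of 22 genes 3 fell and 2 rose (median log2 difference -0.92), beside 12.9% lower and 13.2% higher over all genes. DESeq2 called 10 lower, the fits without hypoxic replicate 2 or with 1 or the other normoxic library left out called 7 lower, and limma-voom called 1. Snap25, a fusion protein of synaptic vesicles, was at 51.4 and 33.2 CPM at E13, 55.4 and 65.1 at E15, and 0.605 and 0.333 in the hypoxic libraries, a difference of -6.74 ± 0.64 (edgeR adjusted p = 0.00162). Syp, the vesicle protein synaptophysin, had 1 hypoxic count against 60.8 to 77.6 CPM in the embryo, and its embryonic level was 3930 times the hypoxic one (95% counting interval 706 to 155000). Grin2b, an NMDA receptor subunit, rose, at 0.215 and 0.178 CPM at E13, 0.335 and 1.03 at E15, and 199 and 83.4 in the hypoxic libraries, a difference of 8.58 ± 0.61 (edgeR adjusted p = 0.000706). Gria2, an AMPA receptor subunit, was at 108 and 91.5 CPM at E13, 214 and 276 at E15, and 386 and 263 in the hypoxic libraries, and was called higher (1.05 ± 0.25 (edgeR adjusted p = 0.0311)) although the groups overlapped. With any 1 embryonic library left out, the difference of Gria2 from the embryo did not pass. Gria2 also did not pass without hypoxic replicate 1.

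Genes of cell division were tested in 2 lists. Of 20 genes of mitosis, 20 were tested and 4 rose (median log2 difference -0.12), beside 13.2% higher over all genes, and 1 rose without any 1 embryonic library. Mki67, a marker of cycling cells, was at 110 and 80.4 CPM at E13, 35.1 and 36.8 at E15, and 182 and 125 in the hypoxic libraries, a difference of 1.40 ± 0.31 (edgeR adjusted p = 0.0249). Plk1, a kinase of mitotic entry, was at 107 and 123 CPM at E13, 49.7 and 34.2 at E15, and 348 and 513 in the hypoxic libraries, a difference of 2.63 ± 0.33 (edgeR adjusted p = 0.00428). Top2a, the topoisomerase of dividing cells, was at 310 and 416 CPM at E13, 121 and 128 at E15, and 167 and 254 in the hypoxic libraries, which lies within the embryonic range. In Mki67 and Plk1 the E13 values exceeded the E15 values, and both hypoxic values exceeded both. Against E13 alone, though, Mki67 did not pass (0.69 ± 0.37, edgeR adjusted p = 0.23). Of the 20 genes, 1 was called higher against E13 alone and 4 against E15 alone. The test without any 1 embryonic library did not call the difference of Mki67 from the embryo.

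DNA replication genes rose in 4 of 25 cases and fell in 3, beside 13.2% higher and 12.9% lower over all genes. All 25 were tested, with a median log2 difference of 0.64. Without 1 embryonic library 0 rose and 2 fell, without hypoxic replicate 1 there were 6 that fell, and without hypoxic replicate 2 there were 7 that rose. Mcm6, a subunit of the replicative helicase, was at 72.4 and 62.3 CPM at E13, 78.3 and 62.3 at E15, and 227 and 155 in the hypoxic libraries, a difference of 1.47 ± 0.30 (edgeR adjusted p = 0.0202). Rrm1, the large subunit of ribonucleotide reductase, fell, at 238 and 263 CPM at E13, 144 and 144 at E15, and 12.6 and 22.4 in the hypoxic libraries, a difference of -3.44 ± 0.53 (edgeR adjusted p = 0.00811). Chaf1a, a histone chaperone of replicating DNA, was at 19.4 and 36.6 CPM at E13, 18.5 and 16.7 at E15, and 0.404 and 0.185 in the hypoxic libraries, a difference of -6.22 ± 0.86 (edgeR adjusted p = 0.0056). In this set of genes 1 hypoxic library was often far below the other, as in Mcm2, at 166 and 0.296 CPM. Without any 1 embryonic library the difference of Mcm6 from the embryo did not pass.

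Ccnd2, a G1 cyclin of cortical progenitors, was at 114 and 154 CPM at E13, 204 and 176 at E15, and 1080 and 1120 in the hypoxic libraries, a difference of 2.78 ± 0.20 (edgeR adjusted p = 0.000735). Cdkn1c, the cyclin-dependent kinase inhibitor p57, had no hypoxic count against 292 and 279 CPM at E13 and 133 and 93.0 at E15, and was at least 1880-fold lower. It was the only 1 of the 5 kinase inhibitors tested, of 7 on the list, that passed, and without 1 embryonic library none did. Cdkn1b, the inhibitor p27, was at 29.3 and 27.8 CPM at E13, 39 and 51.6 at E15, and 9.08 and 13.8 in the hypoxic libraries, a log2 difference of -1.65 ± 0.52 (edgeR adjusted p = 0.0642) that did not pass. The difference of Cdkn1c from the embryo did not pass once any 1 embryonic library was left out. Cdkn1c also did not pass without hypoxic replicate 1 or without hypoxic replicate 2.

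Genes of fetal timing gave no edgeR call in 11 tested of 13 on the list, where 1 had an unadjusted p under 0.05 and DESeq2 called 3 lower. Without hypoxic replicate 1 edgeR called 3 lower and without hypoxic replicate 2 it called 1. Lin28b, an RNA-binding protein of early progenitors, had no hypoxic count, and in the embryo it was at 3.79 and 10.7 CPM at E13 and without a count at E15. Igf2bp1, an RNA-binding protein of fetal tissue, was at 84.5 and 102 CPM at E13, 46.3 and 33.4 at E15, and 28.8 and 25.7 in the hypoxic libraries, a difference of -1.16 ± 0.53 (edgeR adjusted p = 0.156). Hmga2, a chromatin protein of young stem cells, was under 1 CPM in each of the 6 libraries, at 0.447 and 0.82 CPM at E13, 0.0528 and 0.0804 at E15, and 0.303 and 0.037 in the hypoxic libraries. At 2 libraries a group the lack of a call does not show that the levels are alike.

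Imprinted growth genes were tested in 12 of 14 cases, with 1 that rose and 2 that fell, beside 13.2% and 12.9% over all genes. With 1 or the other hypoxic library left out 4 fell, and without any 1 embryonic library 1 fell. Nnat, a membrane protein of developing neurons, was at 1200 and 1260 CPM at E13, 964 and 1010 at E15, and 89 and 55.5 in the hypoxic libraries, a difference of -3.93 ± 0.30 (edgeR adjusted p = 0.000833). The other gene that fell was Cdkn1c, given above. Peg10, a gene derived from a retroelement, was at 3.18 and 2.35 CPM at E13, 1.09 and 0.145 at E15, and 9.52 and 24.7 in the hypoxic libraries, a difference of 3.70 ± 0.94 (edgeR adjusted p = 0.0356). Igf2, the fetal growth factor, did not pass the low-count filter. With any 1 embryonic library left out, the difference of Peg10 from the embryo did not pass. Peg10 also did not pass without hypoxic replicate 2.

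Notch signalling was measured in 17 of 18 genes, of which 7 rose and 2 fell, with a median log2 difference of -0.18. With 1 embryonic library left out, 3 or 4 rose and none fell, and 4 fell with 1 or the other hypoxic library left out. Notch2, a receptor, was at 2.63 and 4.6 CPM at E13, 2.68 and 3.34 at E15, and 927 and 1460 in the hypoxic libraries, a difference of 8.5 ± 0.42 (edgeR adjusted p = 0.000293). Hes1, a target that represses proneural genes, was at 3.06 and 3.42 CPM at E13, 1.43 and 0.643 at E15, and 107 and 48.9 in the hypoxic libraries, a difference of 5.41 ± 0.63 (edgeR adjusted p = 0.00305). Dll1, the ligand that newborn neurons present, was at 383 and 320 CPM at E13, 90.2 and 65.7 at E15, and 57.8 and 0.333 in the hypoxic libraries, and its difference of -2.51 ± 2.17 (edgeR adjusted p = 0.42) did not pass. Numb, an inhibitor of the pathway, fell, at 18 and 20.5 CPM at E13, 17.9 and 15.6 at E15, and 0.572 and 0.666 in the hypoxic libraries, a difference of -4.85 ± 0.72 (edgeR adjusted p = 0.00722). The test without any 1 embryonic library did not call the difference of Numb from the embryo.

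Wnt signalling was measured in 21 of 22 genes, of which 6 rose and 2 fell (median log2 difference -0.47). In fits without 1 embryonic library, 6 rose and none fell. Axin2, a target and feedback inhibitor, was at 2.33 and 3.74 CPM at E13, 3.58 and 4.44 at E15, and 118 and 100 in the hypoxic libraries, a difference of 4.97 ± 0.64 (edgeR adjusted p = 0.00454). Tcf7l2, a transcription factor of the pathway, was at 0.894 and 1.35 CPM at E13, 20.5 and 37.5 at E15, and 2000 and 3890 in the hypoxic libraries, a difference of 9.01 ± 0.44 (edgeR adjusted p = 0.000293). Znrf3, a ligase that removes Wnt receptors, was at 2.34 and 5.36 CPM at E13, 1.48 and 4.03 at E15, and 1210 and 1920 in the hypoxic libraries, a difference of 8.90 ± 0.63 (edgeR adjusted p = 0.000685). Hypoxic values of these genes were above all embryonic values.

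Ctnnb1, which encodes beta-catenin, the messenger protein of the pathway, fell, at 612 and 598 CPM at E13, 847 and 869 at E15, and 344 and 219 in the hypoxic libraries, a difference of -1.35 ± 0.26 (edgeR adjusted p = 0.0158). Lef1, a transcription factor that works with it, had 1 hypoxic count against 13.1 to 19.3 CPM in the embryo. The embryonic level of Lef1 was 993 times the hypoxic one, with a 95% counting interval of 178 to 39200. Gsk3b, the kinase that marks beta-catenin for destruction, rose, at 156 and 136 CPM at E13, 174 and 185 at E15, and 2960 and 5950 in the hypoxic libraries, a difference of 4.78 ± 0.28 (edgeR adjusted p = 0.000422). Without any 1 embryonic library the difference of Ctnnb1 and Lef1 from the embryo did not pass. Ctnnb1 also did not pass without hypoxic replicate 2.

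Of 20 genes that write, read or erase the RNA mark N6-methyladenosine, 20 were tested and 5 rose, with a median log2 difference of 0.01. Without 1 embryonic library 3 rose, and 4 fell without hypoxic replicate 1. Mettl14, a subunit of the writer, was at 38.3 and 33.4 CPM at E13, 41.6 and 35.9 at E15, and 86.3 and 140 in the hypoxic libraries, a difference of 1.60 ± 0.36 (edgeR adjusted p = 0.0273). Rbm15, which guides the writer to RNA, was at 15.6 and 17.8 CPM at E13, 8.98 and 11.9 at E15, and 157 and 319 in the hypoxic libraries, a difference of 4.17 ± 0.38 (edgeR adjusted p = 0.00144). Fto and Alkbh5, the erasers, rose by 1.97 ± 0.19 (edgeR adjusted p = 0.00166) and by 2.40 ± 0.32 (edgeR adjusted p = 0.00509). Mettl3, the catalytic subunit, was at 17.8 and 0.111 CPM in the hypoxic libraries, so the 2 hypoxic libraries were far apart. The difference of Mettl14 from the embryo did not pass once any 1 embryonic library was left out.

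Targets of the hypoxia-inducible factors gave calls in both directions, to be read beside 13.2% higher and 12.9% lower over all genes. Of 20 genes 18 were tested, 4 fell and 2 rose (median log2 difference -0.77), and 1 fell and none rose without 1 embryonic library, while 10 fell without hypoxic replicate 1. Vegfa, the vascular growth factor, fell, at 22.5 and 31.7 CPM at E13, 20.5 and 17.1 at E15, and 0.605 and 1.04 in the hypoxic libraries, a difference of -4.78 ± 1.01 (edgeR adjusted p = 0.0221). P4ha1, an enzyme of collagen hydroxylation, was at 38.1 and 50 CPM at E13, 46.3 and 42.7 at E15, and 1.58 and 2.11 in the hypoxic libraries, a difference of -4.58 ± 0.85 (edgeR adjusted p = 0.0148). Aldoa, a glycolytic enzyme, rose, at 123 and 111 CPM at E13, 90.7 and 106 at E15, and 246 and 330 in the hypoxic libraries, a difference of 1.42 ± 0.24 (edgeR adjusted p = 0.0111). Slc2a1, the glucose transporter, was at 43.6 and 41.3 CPM at E13, 39.4 and 38.8 at E15, and 44.5 and 49.4 in the hypoxic libraries, a difference of 0.20 ± 0.56 (edgeR adjusted p = 0.824) that did not pass. With any 1 embryonic library left out, the difference of Vegfa, P4ha1 and Aldoa from the embryo did not pass.

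Immediate early genes, which switch on within minutes of a stimulus, rose in 12 of 18 cases and fell in 1, with 18 tested and a median log2 difference of 3.90. With 1 embryonic library left out, 9 rose and none fell. Fosb was at 4.15 and 3.37 CPM at E13, 3.24 and 4.16 at E15, and 329 and 415 in the hypoxic libraries, a difference of 6.64 ± 0.38 (edgeR adjusted p = 0.000403). Jun was at 39.2 and 45 CPM at E13, 72 and 74.7 at E15, and 1210 and 1200 in the hypoxic libraries, a difference of 4.43 ± 0.33 (edgeR adjusted p = 0.000765). Arc, an activity gene of neurons, was the 1 that fell, at 0.966 and 1.32 CPM at E13, 0.793 and 1.14 at E15, and 0.101 and 0.074 in the hypoxic libraries, a difference of -3.54 ± 0.81 (edgeR adjusted p = 0.0279). The test without any 1 embryonic library did not call the difference of Arc from the embryo.

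Cholesterol synthesis genes rose in 8 of 21 cases (21 tested, median log2 difference 1.27), and in 4 without 1 embryonic library, while 5 fell without hypoxic replicate 1. Sc5d, an enzyme of a late step, was at 85.1 and 70.6 CPM at E13, 78.6 and 89 at E15, and 2410 and 4260 in the hypoxic libraries, a difference of 5.37 ± 0.31 (edgeR adjusted p = 0.000403). Lss, lanosterol synthase, was at 63.5 and 66.3 CPM at E13, 35.6 and 54.6 at E15, and 0 and 2.07 in the hypoxic libraries and did not pass (-5.71 ± 2.06 (edgeR adjusted p = 0.0912)).

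Genes of the mitochondrial genome made up 0.346% and 0.328% of hypoxic counts and 1.14% to 1.27% of embryonic counts. Of its 13 protein genes 13 were tested and 6 fell, with a median log2 difference of -1.54, and 4 fell without 1 embryonic library. Under relative log expression scaling mt-Cytb was called higher. mt-Co2, a subunit of cytochrome c oxidase, was at 723 and 661 CPM at E13, 669 and 708 at E15, and 62.6 and 67 in the hypoxic libraries, a difference of -3.41 ± 0.20 (edgeR adjusted p = 0.000422). mt-Co3, of the same complex, was at 1390 and 1270 CPM at E13, 1410 and 1540 at E15, and 271 and 219 in the hypoxic libraries, a difference of -2.51 ± 0.20 (edgeR adjusted p = 0.000917). mt-Cytb, of the complex before it, was at 1680 and 1470 CPM at E13, 1740 and 1840 at E15, and 2220 and 2740 in the hypoxic libraries, a difference of 0.56 ± 0.17 (edgeR adjusted p = 0.0592) that did not pass in the fit used here. These genes thus did not move by 1 common factor. Their reads can be shared with nuclear copies of the mitochondrial genome.

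Chromatin genes rose in 5 of 20 cases and fell in 2, with 20 tested, beside 13.2% higher and 12.9% lower over all genes. In fits without 1 embryonic library, 2 or 3 rose and 2 fell, and 4 fell without hypoxic replicate 1. Dnmt3a, the enzyme that methylates DNA anew, was at 25.9 and 49 CPM at E13, 16.7 and 13.2 at E15, and 445 and 565 in the hypoxic libraries, a difference of 4.42 ± 0.31 (edgeR adjusted p = 0.000665). Kdm6b, which removes the Polycomb mark from histone H3, was at 26.7 and 22.5 CPM at E13, 16.9 and 23.9 at E15, and 550 and 880 in the hypoxic libraries, a difference of 5.0 ± 0.28 (edgeR adjusted p = 0.000403). Actl6b, a subunit of the neuronal form of the BAF remodelling complex, had 3 hypoxic counts in all against 28.6 to 59.9 CPM in the embryo. The embryonic level of Actl6b was 870 times the hypoxic one, with a 95% counting interval of 298 to 4220.

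Matrix genes of the brain were tested in 14 of 16 cases, of which 8 rose (median log2 difference 5.39), and 4 or 5 rose without 1 embryonic library. Ncan, the proteoglycan neurocan, was at 142 and 139 CPM at E13, 213 and 210 at E15, and 29600 and 49600 in the hypoxic libraries, a difference of 7.84 ± 0.32 (edgeR adjusted p = 0.000216). Bcan, its relative brevican, was at 1.57 and 2.78 CPM at E13, 17.2 and 16.4 at E15, and 657 and 752 in the hypoxic libraries, a difference of 6.86 ± 0.35 (edgeR adjusted p = 0.000302). Vcan, versican, was at 30 and 36.1 CPM at E13, 33.3 and 31.7 at E15, and 375 and 313 in the hypoxic libraries, a difference of 3.39 ± 0.25 (edgeR adjusted p = 0.000787). Acan, the proteoglycan of perineuronal nets, had no hypoxic count.

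Potassium channels were tested in 11 of 12 genes, with 2 that rose and 2 that fell, beside 13.2% and 12.9% over all genes. None was called lower without any 1 embryonic or hypoxic library or with limma-voom, 4 were called lower with 1 or the other normoxic library left out, and 4 were called higher without hypoxic replicate 2. Kcnj10, the inward rectifier of astrocytes, was at 0.465 and 0.0178 CPM at E13, 5.85 and 4.23 at E15, and 234 and 599 in the hypoxic libraries, a difference of 8.55 ± 1.08 (edgeR adjusted p = 0.00423). Of 16 genes of antigen presentation and the interferon response, 12 were tested, 1 rose and 2 fell, and 0 were called lower without any 1 embryonic library, with limma-voom or with the replicate block. With 1 or the other hypoxic library left out 2 were called higher. B2m, the light chain of class I molecules, had 1 hypoxic count against 4.13 to 10.1 CPM in the embryo, and Ifitm3 rose, at 0.179 and 0.927 CPM at E13, 0.0881 and 0.289 at E15, and 34.3 and 26.7 in the hypoxic libraries, a difference of 6.55 ± 0.97 (edgeR adjusted p = 0.00707). Ifitm3 did not pass without E15 replicate 1.

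Ependymal and motile cilia genes gave 10 tested of 12, with 1 that rose and 2 that fell, beside 13.2% and 12.9% over all genes. None was called lower without any 1 embryonic library, with limma-voom or with the replicate block, 4 were called higher without hypoxic replicate 1, and 5 by DESeq2. Rsph1, a radial spoke protein, was at 1.09 and 2.35 CPM at E13, 0 and 0 at E15, and 77.6 and 46.2 in the hypoxic libraries, a difference of 9.79 ± 0.79 (edgeR adjusted p = 0.00201). Foxj1, the master factor of motile cilia, was at 6.17 and 13.8 CPM at E13, 1.11 and 0.964 at E15, and 3.7 and 49.1 in the hypoxic libraries, and the groups overlapped. Dnah11 and Ccdc153, axonemal genes, did not pass the low-count filter, with 4 and 2 hypoxic counts and none in the embryo.

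Markers of other cell types were measured in the same libraries. Of 12 microglial genes 4 passed the filter and none was called in edgeR, with 2 at an unadjusted p under 0.05 and 1 called by DESeq2, and 6 of the 12 had no hypoxic count, Aif1, C1qa and Trem2 among them. The summed level of the 12 was 0 and 88.2 CPM in the hypoxic libraries and 1.97 to 6.47 CPM in the embryo, so the second hypoxic library stood above the embryonic range and the first below it. Without hypoxic replicate 1 edgeR called 1 higher and without hypoxic replicate 2 it called 1 lower. Of 12 vascular and mural genes 10 were tested, 4 fell and 1 rose, and 0 fell without any 1 embryonic library or without hypoxic replicate 2. The gene that rose was Rgs5, a pericyte gene that regulates G protein signalling, at 1240 and 1020 CPM with no embryonic count, at least 21700-fold higher. The defining endothelial genes Cldn5, Pecam1 and Cdh5 had no hypoxic count. The summed vascular level was 1280 and 1020 CPM in the hypoxic libraries against 9.12 to 17.7 CPM in the embryo. Most of the hypoxic sum was that of Rgs5, and in the first hypoxic library other genes of the list made up the rest.

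Blood genes differed between embryonic stages. Of 10 blood genes 10 were tested and 6 fell, with 0 called lower by limma-voom, and their summed level was 4.31 and 0.037 CPM in the hypoxic libraries against 21.0 to 17300 CPM in the embryonic ones. Hbb-y, an embryonic globin, had no hypoxic count and was at 2550 and 8810 CPM at E13 and at 0.423 and 0.129 CPM at E15. Reads of the globins can be shared between near-identical copies. Of 8 choroid plexus genes 4 passed the filter and none was called in edgeR, with 0 at an unadjusted p under 0.05 and 1 called by DESeq2. The summed level of the 8 was 10.2 and 58.1 CPM in the hypoxic libraries and 1.02 to 24.4 CPM in the embryo. Otx2, a transcription factor of the plexus, made up that of the second hypoxic library, at 58.1 CPM, and was at 0.0673 CPM in the first. Ttr, the transthyretin of the plexus, was at 0.519 and 14.9 CPM at E13, 0.511 and 3.47 at E15, and 10.1 and 0 in the hypoxic libraries. The part of these cell types in the results above was not tested.

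The 2 P12 groups were set side by side to see which differences from the embryo belong to the hypoxic cells. Normoxic cells had 2408 genes higher (12.1%) and 1133 lower (5.68%) than the embryo in the same fit, and both comparisons share the embryonic libraries. The test of the difference between the P12 groups called 602 genes (3.02%), of which 39 were higher in hypoxia (0.196%) and 563 lower (2.82%). Fewer genes had at least 10 counts in the hypoxic libraries (12785 and 11695) than in the normoxic ones (14129 and 16468). The part of that difference in the 39 and 563 calls was not tested. None of the 22 astrocyte genes and none of the 13 oligodendrocyte progenitor genes was among them in edgeR, and 0 and 5 had an unadjusted p under 0.05. Calls of this test are less secure: in each of the 16 genes below the sign held in all 17 alternatives, but none passed without any 1 embryonic library (adjusted p 0.151 to 0.165), with limma-voom (0.386 to 0.434) or with a replicate block (0.0929 to 0.0979).

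Among genes that rose against the embryo and stood above normoxia too was E2f8, a repressor of the cell cycle, at 13.1 and 11.4 CPM at E13, 6.87 and 4.97 at E15, and 65.7 and 88.2 in the hypoxic libraries. The normoxic libraries held 0.476 and 0.196 CPM, below the embryonic range, and the log2 difference between the P12 groups was 7.83 ± 0.89 (edgeR adjusted p = 0.0228). Cyth3, an exchange factor for ARF proteins, was at 24.8 and 24.1 CPM at E13, 26.2 and 34.6 at E15, and 92.5 and 81.2 in the hypoxic libraries, with 1.75 and 2.22 CPM in normoxia and a difference of 5.45 ± 0.58 (edgeR adjusted p = 0.0217). Slc12a2, the sodium, potassium and chloride cotransporter NKCC1, was at 26.9 and 21.3 CPM at E13, 44.9 and 41.3 at E15, and 466 and 273 in the hypoxic libraries, with 50.8 and 59.3 CPM in normoxia and a difference of 2.75 ± 0.39 (edgeR adjusted p = 0.03). Zkscan17, a zinc finger protein, was at 29.4 and 30.3 CPM at E13, 23.6 and 32.4 at E15, and 79.5 and 114 in the hypoxic libraries, with 6.16 and 6.58 CPM in normoxia and a difference of 3.93 ± 0.54 (edgeR adjusted p = 0.028). Ctf1, which encodes the gliogenic cytokine cardiotrophin 1, was at 1.65 and 1.73 CPM at E13, 0.828 and 1.35 at E15, and 21.9 and 74.6 in the hypoxic libraries and had no normoxic count, at least 499-fold higher in hypoxia. Without any 1 embryonic library the difference of E2f8, Cyth3, Zkscan17 and Ctf1 from the embryo did not pass.

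Genes lower in hypoxic cells than in both other groups included Stmn2 and Ina of the axon list. Stmn2 was at 29.3 and 40.5 CPM in normoxia, and the difference between the P12 groups was -8.59 ± 0.57 (edgeR adjusted p = 0.0183). Nsmf, at 208 and 140 CPM in normoxia, differed by -7.64 ± 0.51 (edgeR adjusted p = 0.0183), and Rgmb, at 56.0 and 34.5 CPM, differed by -6.78 ± 0.50 (edgeR adjusted p = 0.0183). Ina was at 38.8 and 44.8 CPM in normoxia, a difference of -8.01 ± 0.58 (edgeR adjusted p = 0.0183). Stam2, a protein of endosomal sorting, was at 95.7 and 72.4 CPM at E13, 91 and 111 at E15, and 0.336 and 0.37 in the hypoxic libraries, with 89.8 and 57.6 CPM in normoxia and a difference of -7.70 ± 0.57 (edgeR adjusted p = 0.0183). In each of these 5 genes both hypoxic values lay below the normoxic and the embryonic values, with 2 to 32 counts per hypoxic library. Other genes named above were also called lower in hypoxic than in normoxic P12. They include Emx2, Snap25, Chaf1a, Rrm1, Plxna2, L1cam, Bcl11b, Syp, Actl6b, Numb, Mmp24 and Ttc39b. Emx2 was at 33.9 and 52.6 CPM in normoxia and Snap25 at 85.8 and 87.6 CPM. Emx2, Snap25, Chaf1a and Rrm1 were not called in normoxic cells against the embryo. These calls were not followed in the alternative fits.

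Another set of genes differed between the P12 groups while hypoxic and embryonic cells were not called different. Meg3, a maternally expressed non-coding RNA, was at 42.9 and 42.8 CPM at E13, 22.5 and 16.1 at E15, and 52.1 and 36.4 in the hypoxic libraries, with 1100 and 1290 CPM in normoxia. Its hypoxic level differed from the embryo by 0.62 (95% interval 0.03 to 1.22) and from normoxia by -4.75 ± 0.34 (edgeR adjusted p = 0.0183). Prkra, an activator of the kinase PKR, was at 45.2 and 44.5 CPM at E13, 51.9 and 51.2 at E15, and 81.3 and 73.9 in the hypoxic libraries, with 0.318 and 0.261 CPM in normoxia. It differed from the embryo by 0.69 (95% interval -0.20 to 1.57) and from normoxia by 8.05 ± 0.58 (edgeR adjusted p = 0.0183). Both hypoxic values of Prkra lay above the embryonic ones, while those of Meg3 overlapped them.

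Wdr46, a nucleolar protein, was at 24.7 and 28.1 CPM at E13, 30.9 and 27.9 at E15, and 67.7 and 85.2 in the hypoxic libraries, with 0.349 and 0.196 CPM in normoxia, and differed from the embryo by 1.46 (95% interval 0.37 to 2.54). Csnk1g2, a casein kinase, was at 87.8 and 80.4 CPM at E13, 76.1 and 87.5 at E15, and 98.9 and 121 in the hypoxic libraries, with 10.4 and 10.5 CPM in normoxia, and differed from the embryo by 0.41 (95% interval -0.32 to 1.14). Usp46, a deubiquitinase, was at 93.4 and 89.3 CPM at E13, 41 and 53.2 at E15, and 38.7 and 87.3 in the hypoxic libraries, with 0.921 and 0.391 CPM in normoxia, and differed from the embryo by -0.06 (95% interval -1.39 to 1.27). Kif20b, a kinesin of cytokinesis, was at 60.8 and 43.2 CPM at E13, 25.2 and 23.8 at E15, and 11.8 and 8.91 in the hypoxic libraries, with 1 count in each normoxic library, and differed from the embryo by -1.78 (95% interval -3.11 to -0.46). Against single stages, Meg3 was called higher than at E15 (1.20 ± 0.29, edgeR adjusted p = 0.0391). Kif20b was called lower than at E13 (-2.33 ± 0.60, edgeR adjusted p = 0.0465). The difference from the embryo also passed in some alternative fits for Wdr46, Kif20b, Meg3, Prkra and Csnk1g2. An adjusted p above the threshold, as in these 6 genes, does not show that the hypoxic and embryonic levels are the same.

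**Figure D5:**
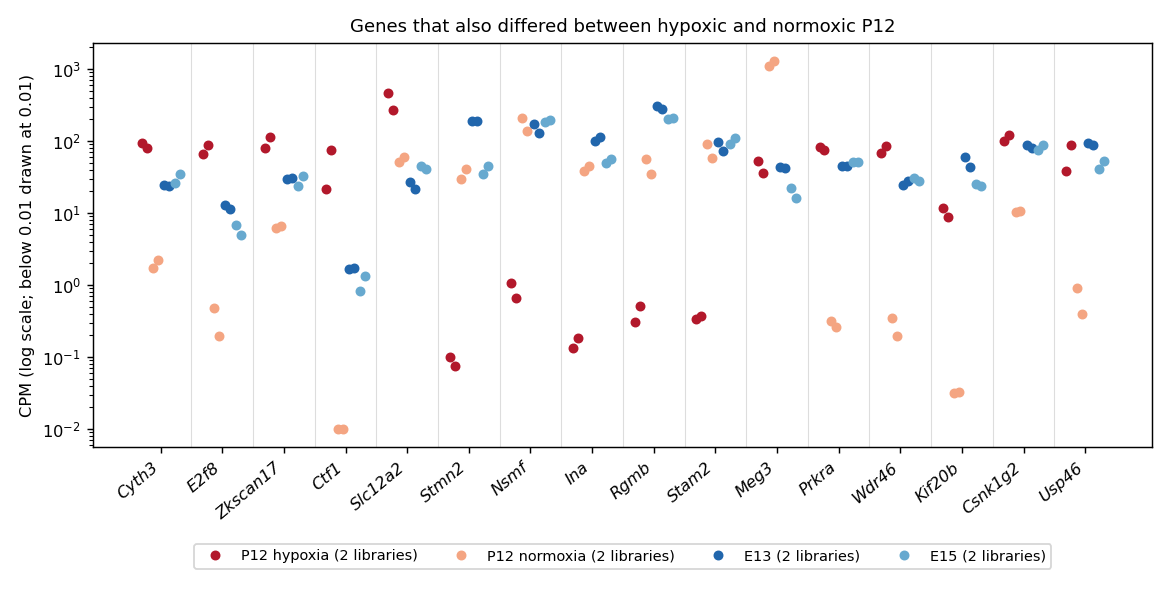
Dots give the CPM (log scale, values under 0.01 drawn at 0.01) of 16 genes that differ between the P12 groups, in each of the 8 libraries, coloured by group. In Cyth3, E2f8, Zkscan17, Ctf1 and Slc12a2 the hypoxic dots are the highest, and in Stmn2, Nsmf, Ina, Rgmb and Stam2 they are the lowest. In Meg3, Prkra, Wdr46, Kif20b, Csnk1g2 and Usp46 they lie nearer to the embryonic than to the normoxic dots. All 16 were chosen by their calls between these groups, so such positions follow from the choice and are not a separate result.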

How the data were processed

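Total RNA of tdTomato-positive brain cells was sequenced in 8 libraries of 4 groups. The deposited values are raw counts per gene, and per the submitters' processing notes the authors used cutadapt, STAR and Subread with the mouse build GRCm38; versions, annotation and strand setting are not given in the sources used here. Rows without a gene name, 1980 of 55487 and 0.205% to 0.266% of counts, were left out, and 51695 gene names (96.6%) matched GENCODE M21. Counts were scaled with TMM and fitted in edgeR 4.0.16 (R 4.3.3) with 1 coefficient per group over all 8 libraries (4 residual degrees of freedom), after edgeR's filter with a minimum of 10 counts and 15 in total. CPM are per TMM-scaled library. The 2 hypoxic libraries were compared with the mean of E13 and E15, with Benjamini-Hochberg adjustment over 19936 genes. Named genes are, in each direction, the 8 called genes of smallest p and the 6 of largest fold with at least 10 CPM and no overlap between groups, up to 4 called members per list, genes that also differ between the P12 groups, and genes always given; some genes under that rule are not reported here. Members and lists were chosen with earlier results of these data known, and some genes stand on more than 1 list. Genes with 0 counts in a group have a fold against 3 counts per library, and genes with 1 to 3 counts a ratio with a 95% counting interval. Same-numbered libraries did not deviate together (correlations -0.044 to 0.014), so numbers do not pair. Alternatives used limma 3.58.1 and DESeq2 1.42.0. Figures were drawn with matplotlib 3.10.9.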

Additional observations from a re-analysis of the deposited data

Results flagged for a closer look

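In 16 genes the difference from the embryo was not the same in hypoxic and normoxic P12 cells, by the test of hypoxic against normoxic libraries in the same edgeR fit (adjusted p 0.0183 to 0.03). Hypoxic cells stood higher by 5.45 on the log2 scale in Cyth3, 7.83 in E2f8, 3.93 in Zkscan17 and 2.75 in Slc12a2, and Ctf1 was at least 499-fold higher, with no normoxic count. Hypoxic cells differed by -8.59 in Stmn2, -7.64 in Nsmf, -8.01 in Ina, -6.78 in Rgmb and -7.70 in Stam2. In the genes whose hypoxic level was not called different from the embryo, the difference from normoxia was -4.75 in Meg3, 8.05 in Prkra, 8.12 in Wdr46, 3.40 in Csnk1g2 and 6.58 in Usp46, and the hypoxic level of Kif20b was 325 times the normoxic one (95% counting interval 89.5 to 2690). Each of these differences had both hypoxic libraries on 1 side of both normoxic libraries. They came from 602 genes called by this test of 19936 tested (3.02%), and the 16 were selected by p.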

How the results depend on the processing

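Counts of genes higher and lower than the embryo, 2630 and 2578, moved by over 1.5 times under some alternatives. DESeq2 called 4474 higher and 4527 lower (against E13 3803 and 4065, against E15 3972 and 3995). limma-voom with sample weights called 414 lower (385 and 417 against the single stages), and 82.7% of its calls were higher against 50.5% here. Without the low-count filter 1650 were lower (1225 and 1221), and in a fit of the 6 libraries alone 3882 (3649 and 3505). The replicate block gave 1758 higher and 1110 lower, with 1008 and 739 against E13 and 1059 and 790 against E15, and 61.3% of its calls were higher, so numbers that do not pair cost calls. Leaving out 1 library at a time gave 1073 to 3170 higher and 489 to 3666 lower. Against E13 it gave 307 to 2466 higher and 142 to 3402 lower, and against E15 294 to 2532 and 142 to 3376. The low ends come from leaving out an embryonic library and the high ends from leaving out hypoxic replicate 1, where the 1 library left is taken to scatter as those of the other groups do. The cause was not tested. The other scalings, the stricter filter, a fit without genes of mitochondria, ribosomal proteins and haemoglobin and the test against a log2 difference of 1 kept the 6 counts within 1.5 times. No called gene named above changed sign. Of those not called, Sox11 turned to 0.047 with relative log expression scaling and with DESeq2, and lay between -1.05 and 0.31 with 1 library left out. Usp46 turned to 0.19 under the same scaling and DESeq2, to 0.073 in the 6 libraries, and lay between -0.77 and 0.42 with 1 library left out. Slc2a1 turned to -0.13 with upper-quartile scaling. Of the 117 calls, 30 did not pass with limma-voom, 10 with the replicate block and 0 with DESeq2. Counts of list members moved by over 1.5 times in 182 cases with 1 library left out and in 111 cases under the other alternatives. The alternatives for hypoxic against normoxic cells were chosen after seeing the data. With 3 counts as the floor, values under 0.101 to 0.111 CPM in the hypoxic libraries and 0.0482 to 0.0537 CPM in the embryonic libraries are not told from 0.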
